A study of Mus musculus with 8 samples.

Results

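Angiogenic factors and receptors were examined in mouse wound skin as 10 genes, namely the VEGF family ligands Vegfa and Pgf with their receptors Kdr and Flt1, the angiopoietins Angpt1 and Angpt2 with their receptor Tek, the peptide ligand Apln with its receptor Aplnr, and the tip cell gene Esm1. They were chosen by gene symbol, as members of the VEGF, angiopoietin and apelin systems, and all 10 were among the 18540 genes of the count table and among the 15147 genes with enough reads to test. RNA was sequenced from 8 samples of skin taken from wounds. The 4 control samples, numbered 1, 2, 3 and 5 and written control-1 and so on, came from the group given phosphate buffered saline. The other 4, numbered 1, 2, 4 and 5, came from wounds treated for 15 days with Z1C2Z, particles of ZnO2 and CeO2 inside the zinc-based metal organic framework ZIF-8, in the version made with more CeO2 per ZnO2. The material was injected around the wound at 100 μg/kg. The library titles call the treated group only shiyan, and the name Z1C2Z was taken from the study's own sample names, which carry the same numbers. The study wounded the backs of both C57BL mice and db/db mice, a leptin receptor mutant used as a model of diabetes. The series title speaks of diabetic wounds, but the strain, age and identity of the mouse behind each sequenced sample are not given in the sources used here. Each db/db mouse carried a pair of wounds, and nothing says that the 8 samples came from separate mice, so the p-values measure only the spread between these samples.

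New vessels sprout when VEGF-A, released by hypoxic cells, keratinocytes and macrophages, acts through the receptor KDR (VEGFR2) on endothelial tip cells. FLT1 (VEGFR1) binds VEGF-A more tightly but signals weakly and, in its soluble form, acts as a decoy; PlGF, the product of Pgf, binds FLT1 and not KDR. Angiopoietin 1 from perivascular cells activates the endothelial receptor TIE2, encoded by Tek, and keeps vessels stable, whereas angiopoietin 2 from activated endothelium mostly opposes it. Apelin is made by sprouting endothelial cells and acts on its receptor on nearby endothelium, and Esm1 encodes endocan, a proteoglycan secreted by tip cells. Wound beds fill with new vessels early in repair and lose many of them again as the scar matures.

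The libraries held 28856790 to 38249438 counts in the control group and 33966536 to 38974888 in the Z1C2Z group. Endothelial markers were present in every sample. The 16 markers listed, among them Pecam1 and Cdh5, summed to 470.9 to 1329 CPM in the controls and to 421.1 to 742.1 CPM in the Z1C2Z samples, where CPM stands for counts per 1000000 of the scaled library. Hair markers differed between the groups. All 12 hair shaft and matrix markers were called higher in Z1C2Z by edgeR's quasi-likelihood test, and their sum was 83.7 to 403 CPM in the controls and 463 to 3786 CPM in Z1C2Z. Skeletal muscle markers summed to 3324 to 6230 CPM against 2906 to 3142 CPM, neutrophil markers to 612 to 1558 CPM against 176 to 721 CPM, and macrophage markers to 2722 to 3155 CPM against 1724 to 2759 CPM. The log2 fold change was below 0 for 10 of 10 muscle, 7 of 7 neutrophil and 10 of 10 macrophage markers tested. The medians were -0.52, -1.12 and -0.37, and edgeR called 2, 0 and 0 of them lower. Of 8 fibroblast markers, 8 had a log2 fold change below 0, with a median of -0.55, and 3 were called lower (Lum, Dcn and Mfap5), with sums of 56120 to 79530 CPM against 44140 to 61530 CPM. Of 8 keratinocyte markers, 7 had a log2 fold change above 0, with sums of 12010 to 14480 CPM against 13400 to 18840 CPM. EdgeR called 0 of the 8, 3 were higher at an unadjusted p under 0.05, and DESeq2 called 3 higher. Of all tested genes, edgeR called 3.85% lower and 4.28% higher, and 12.8% were higher at an unadjusted p under 0.05. DESeq2 called 7.65% higher of the genes it gave an adjusted p.

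The ligand genes Pgf and Apln were lower in the Z1C2Z wounds than in the controls. Pgf fell 4.81-fold and Apln 2.46-fold, and these were the genes that passed the test, 2 of 10 in the lower direction and 0 of 10 in the higher direction (adjusted p under 0.05 by the quasi-likelihood test of edgeR, Benjamini-Hochberg method). Over all tested genes, 3.85% were called lower and 4.28% higher. At an unadjusted p under 0.05, 5 of the 10 were lower and 0 were higher, against 15.2% and 12.8% of all tested genes. DESeq2 called 4 of the 10 lower and 0 higher, against 9.31% and 7.65% of the genes it gave an adjusted p. The log2 fold change, Z1C2Z against control, was below 0 for 10 of 10 genes, against 48.9% of all tested genes. Its median was -1.01 over the 10 genes and 0.01 over all tested genes. In these bulk samples, fewer cells of a type and less RNA per cell cannot be told apart.

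**Figure D1:**
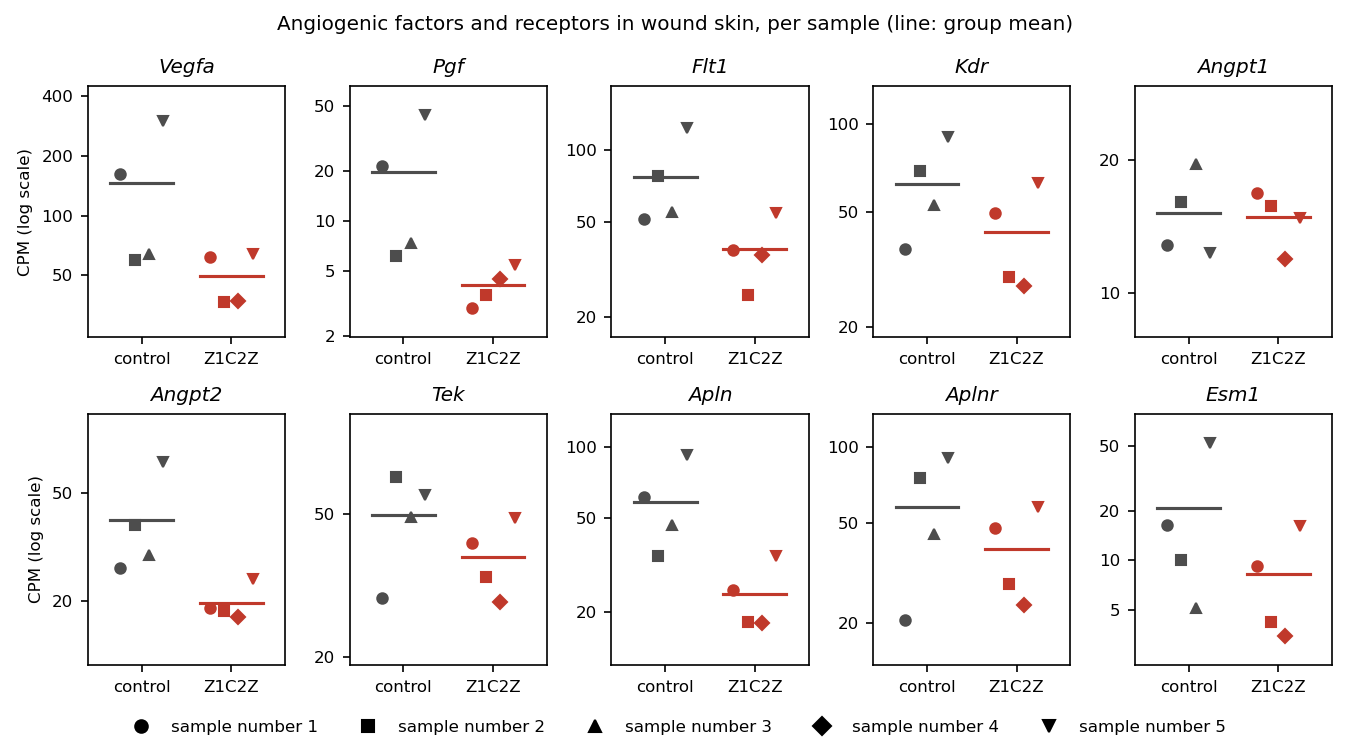
CPM (log axis) of the 10 genes in each of the 8 samples, with control samples in grey and Z1C2Z samples in red, marker shapes for the sample numbers and a line at each group's arithmetic mean. Control-5 is the highest control for 8 of the 10 genes, and only Pgf and Angpt2 have all 4 Z1C2Z samples below all 4 controls.

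Pgf, the FLT1-specific ligand (Entrez 18654), was at 21.5, 6.11, 7.38 and 43.9 CPM in the controls, in the order of their numbers (1, 2, 3, 5), and at 2.96, 3.55, 4.42 and 5.43 CPM in the Z1C2Z samples (1, 2, 4, 5). Every Z1C2Z sample was below every control, and control-1 and control-5 stood well above the other controls. The means were 19.7 ± 17.5 and 4.09 ± 1.08 CPM (SD, n = 4 each). The log2 fold change was -2.27 (SE 0.59), with a 95% interval of -3.61 to -0.93 and an adjusted p of 0.0495 by edgeR. An exact two-sided permutation test gave p = 0.0286, the smallest that 4 against 4 samples allow. The adjusted p lay just under the threshold. It was 0.0375 without control-3, but between 0.0557 and 0.141 when control-1, control-2, control-5 or any 1 of the Z1C2Z samples was left out, and the log2 fold change was -1.496 without control-5. Over all 16 alternatives the adjusted p of Pgf ran from 0.00775 to 0.999.

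Vegfa (Entrez 22339), the central ligand of KDR, was at 162, 59.4, 63.9 and 300.3 CPM in the controls and at 61.9, 36.6, 37.0 and 63.8 CPM in the Z1C2Z samples, in the same order. Its control samples fell apart as those of Pgf did, with control-1 and control-5 high. Control-2 lay below Z1C2Z-1 and Z1C2Z-5, so the groups overlapped. The group means were 146 ± 113 and 49.8 ± 15.1 CPM (SD, n = 4 each), and the log2 fold change of -1.56 (SE 0.50; 95% interval -2.69 to -0.42) had an unadjusted p of 0.0126 and an adjusted p of 0.0844 by edgeR. Without control-5 it was -0.92. Counts per gene do not separate the splice forms of Vegfa.

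Neither VEGF receptor passed the test. Flt1 (Entrez 14254) was at 51.3, 77.7, 55.1 and 123 CPM in the controls and at 38.4, 24.8, 36.2 and 54.5 CPM in Z1C2Z. Only Z1C2Z-5 reached into the control range. The log2 fold change of Flt1 was -0.998 (SE 0.31; 95% interval -1.70 to -0.29), with an adjusted p of 0.0786 by edgeR. DESeq2 gave Flt1 an adjusted p of 0.00993 and edgeR without Z1C2Z-5 gave 0.0455, within a range of 0.00993 to 0.999 over the alternatives. The counts do not separate membrane-bound from soluble FLT1. Kdr (Entrez 16542), the main signaling receptor, was at 37.2, 69.0, 52.8 and 90.3 CPM in the controls and at 49.6, 29.7, 27.7 and 62.7 CPM in Z1C2Z, and the groups overlapped widely. Its log2 fold change of -0.56 had a 95% interval of -1.29 to 0.18 (adjusted p = 0.296, edgeR), which holds both no difference and a fall of more than 2-fold.

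In the angiopoietin system no gene passed the test. Angpt2 (Entrez 11601), the ligand released by activated endothelium, was at 26.4, 37.99, 29.5 and 65.3 CPM in the controls and at 18.8, 18.4, 17.5 and 24.1 CPM in Z1C2Z. All Z1C2Z samples were below all controls, as for Pgf, and such separation held for 2 of the 10 genes and for 8.82% of all tested genes. The means were 39.8 ± 17.7 and 19.7 ± 3.01 CPM (SD, n = 4 each), and the log2 fold change was -1.02 (SE 0.27; 95% interval -1.62 to -0.41). Its edgeR adjusted p of 0.0507 missed the threshold narrowly. DESeq2 gave Angpt2 an adjusted p of 0.00271, and edgeR gave 0.0392 without control-1 and 0.0464 without Z1C2Z-5, within a range of 0.00271 to 0.999 over the alternatives.

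Angpt1 (Entrez 11600), the stabilizing ligand made by perivascular cells, was at 12.9, 16.1, 19.6 and 12.3 CPM in the controls and at 16.9, 15.8, 11.9 and 14.8 CPM in Z1C2Z. The Z1C2Z values lay almost wholly within the control range. Its log2 fold change was -0.04 (SE 0.17) with a 95% interval of -0.43 to 0.35 (adjusted p = 0.909, edgeR), and it was the least variable of the 10 genes among the controls, with a coefficient of variation of 22.2%. Tek (Entrez 21687), the receptor of both ligands, was at 29.1, 63.4, 49.2 and 56.6 CPM in the controls and at 41.5, 33.4, 28.6 and 48.7 CPM in Z1C2Z. Control-1 was the lowest control and overlapped the treated samples, and the log2 fold change of -0.38 (95% interval -0.93 to 0.17) had an adjusted p of 0.336 by edgeR.

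Apln (Entrez 30878), the apelin ligand of sprouting endothelium, was at 61.5, 34.4, 46.4 and 91.8 CPM in the controls and at 24.8, 18.1, 17.9 and 34.5 CPM in Z1C2Z. The groups met only where Z1C2Z-5 and control-2 had nearly the same value. The means were 58.5 ± 24.8 and 23.8 ± 7.79 CPM (SD, n = 4 each). Apln had a log2 fold change of -1.30 (SE 0.32; 95% interval -2.01 to -0.58) and an adjusted p of 0.0426 by edgeR. The call held without control-3 (adjusted p = 0.0495, edgeR) and without Z1C2Z-5 (0.0236). It was lost, with adjusted p-values between 0.0553 and 0.127, when either of Z1C2Z-2 and Z1C2Z-4, Z1C2Z-1 or a control other than control-3 was left out, and over all 16 alternatives the adjusted p of Apln ran from 0.000609 to 0.999.

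The receptor Aplnr (Entrez 23796) was at 20.5, 75.0, 45.1 and 90.0 CPM in the controls and at 47.4, 28.4, 23.5 and 57.6 CPM in Z1C2Z. Control-1 had the lowest value of all 8 samples although its Apln was the second highest, so ligand and receptor did not rank alike among the controls. Aplnr had a log2 fold change of -0.56 (95% interval -1.55 to 0.43; adjusted p = 0.438, edgeR). Esm1 (Entrez 71690), the tip cell gene, was at 16.3, 10.1, 5.15 and 52.2 CPM in the controls and at 9.19, 4.197, 3.46 and 16.2 CPM in Z1C2Z. It varied most among the controls, with a coefficient of variation of 102%, and control-3 lay below Z1C2Z-1 and Z1C2Z-5. Its log2 fold change of -1.35 (95% interval -2.98 to 0.29; adjusted p = 0.259, edgeR) was -0.34 without control-5.

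**Figure D2:**
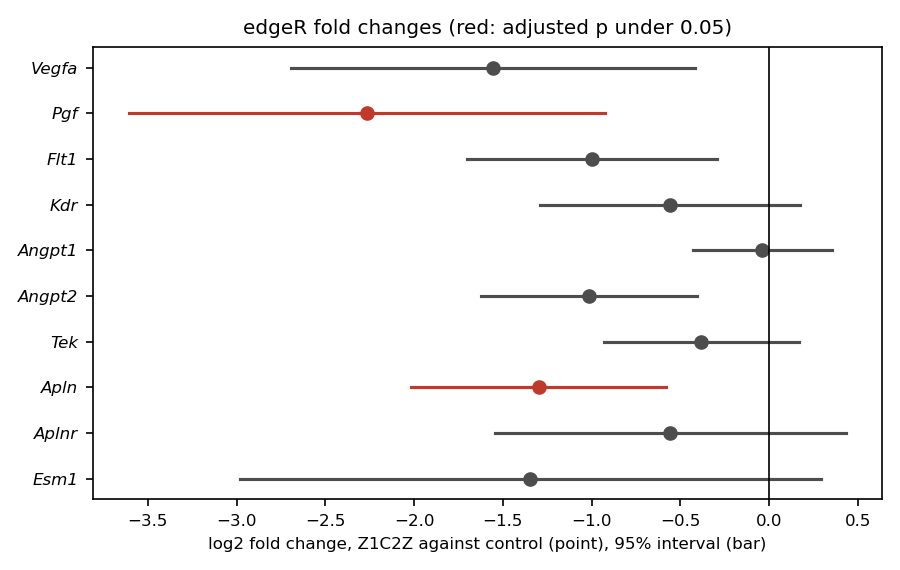
Log2 fold change of each gene, Z1C2Z against control, by edgeR (points) with its 95% interval (bars). Pgf at -2.27 and Apln at -1.30 are drawn in red for an adjusted p under 0.05, and the point of Angpt1 lies at -0.04.

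The sequences before the start sites of Pgf and Apln, the genes called lower, are shown because hypoxia-inducible factors, which bind the letters ACGTG or GCGTG, are known regulators of several angiogenic genes. They come from RefSeq (GRCm38.p6), cover the 250 bases before the annotated start and are written 5′ to 3′ along the gene. Both genes lie on the minus strand. The Pgf window is chr12:85177314-85177563, the first of the gene's listed starts, and the Apln window is chrX:48034854-48035103. Capitals mark a match to either motif on either strand.
Pgf: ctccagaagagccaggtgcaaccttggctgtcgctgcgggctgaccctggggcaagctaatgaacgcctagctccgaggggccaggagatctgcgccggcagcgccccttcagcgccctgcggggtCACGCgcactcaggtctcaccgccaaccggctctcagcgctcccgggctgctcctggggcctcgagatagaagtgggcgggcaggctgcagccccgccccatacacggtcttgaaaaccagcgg
Apln: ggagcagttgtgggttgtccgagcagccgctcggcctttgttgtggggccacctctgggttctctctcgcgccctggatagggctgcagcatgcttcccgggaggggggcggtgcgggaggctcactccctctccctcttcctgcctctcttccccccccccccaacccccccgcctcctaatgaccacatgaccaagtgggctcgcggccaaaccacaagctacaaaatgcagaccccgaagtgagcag
The Pgf window held 1 match, GCGTG on the strand opposite to the gene, at position 127 counted from its 5′ end, and the Apln window held none. Windows were matched for 7 of the 10 genes, and 5 of these 7 (Vegfa, Pgf, Flt1, Kdr and Esm1) held a match in at least 1 window. Counted by window, 5 of the 9 windows of these genes held one. Of all 32851 promoter windows of this length, 38.6% held one. For Vegfa, the window of the first listed start (chr17:46032378-46032627) held none. Its other window (chr17:46025164-46025413), which lies downstream of the first on the minus strand, held 2 matches.

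Levels were ranked between genes as CPM per kilobase of exon. In the controls Vegfa had the highest level, at 34.2 CPM per kb, followed by Apln (18.6), Aplnr (15.6), Angpt2 (10.8), Tek (10.5), Esm1 (9.99), Kdr (6.90), Pgf (6.79), Flt1 (5.69) and Angpt1 (2.93). Of these neighbours, Vegfa was above Apln and Flt1 above Angpt1 in 4 of 4 controls, while every other neighbouring pair changed order in at least 1 control. In the Z1C2Z samples Vegfa still led with 11.6 CPM per kb, and Aplnr was above Apln in 4 of 4 samples, with 10.6 against 7.56 CPM per kb. Pgf was the lowest of the 10 genes in Z1C2Z, at 1.41 CPM per kb, and Flt1 and Angpt1 both stood at 2.85 CPM per kb.

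The samples behind these values were not evenly spread. Control-5 had the highest control value for 8 of the 10 genes and control-1 the lowest for 5. Among the treated samples Z1C2Z-5 was highest for 9 genes and Z1C2Z-4 lowest for 7. The hair shaft markers ran the other way within the Z1C2Z group, with a mean log2 CPM of 4.98 in Z1C2Z-5, 6.66 in Z1C2Z-1, 8.00 in Z1C2Z-2 and 7.88 in Z1C2Z-4, against 1.67 to 4.79 in the controls. With this hair score as a covariate, none of the 10 genes was called, 0 had an unadjusted p under 0.05, and 6 of 10 log2 fold changes were below 0. The hair score did not overlap between the groups, so that in this fit hair content and treatment cannot be told apart, and edgeR called 1 gene of all tested. With Z1C2Z-2 and Z1C2Z-4 left out together, 0 of the 10 and 0 of all tested genes were called, while 3 of the 10 were lower at an unadjusted p under 0.05. In that fit the log2 fold changes were -2.23 for Pgf and -0.98 for Apln, with a median of -0.73 over the 10 genes. With a skeletal muscle score as a covariate, which was highest in control-1 at 8.96, 0 of the 10 were called, against 1.23% of all tested genes called lower, and 5 of the 10 were lower at an unadjusted p under 0.05. All 10 log2 fold changes stayed below 0 in that fit, with a median of -1.06, and were -1.52 for Pgf and -1.11 for Apln. The muscle score did not overlap between the groups either, at 7.918 to 8.96 in the controls and 7.764 to 7.909 in Z1C2Z. Muscle content and treatment therefore cannot be told apart in that fit. The part of the neutrophil, macrophage, fibroblast and keratinocyte content in these values was not tested.

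Ratios of CPM within each sample, which do not depend on library size, were compared between the groups. They were not corrected for gene length, so their sign does not say which gene of a pair had the higher level. The log2 ratio of Angpt2 to Angpt1, antagonist to agonist, was 1.03, 1.24, 0.59 and 2.40 in the controls and 0.15, 0.22, 0.55 and 0.70 in Z1C2Z. Only control-3 fell among the treated samples, between Z1C2Z-4 and Z1C2Z-5. The mean difference was -0.91 (exact permutation p = 0.0571, two-sided; 0.171 after Benjamini-Hochberg adjustment over the 4 ratios tested). The ratio of Kdr to Flt1 was -0.46, -0.17, -0.06 and -0.45 in the controls and 0.37, 0.26, -0.39 and 0.20 in Z1C2Z. Only Z1C2Z-4 fell among the controls. The difference between the groups was 0.40 (exact permutation p = 0.0857, adjusted 0.171). The ratio of Apln to Aplnr was 0.13 ± 1.11 in the controls and -0.68 ± 0.23 in Z1C2Z (SD, n = 4 each; exact permutation p = 0.200, adjusted 0.267). The ratio of Vegfa to Flt1 was 0.69 ± 0.94 and 0.38 ± 0.30 (exact permutation p = 0.514, adjusted 0.514). None of the 4 ratios passed the adjusted threshold.

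**Figure D3:**
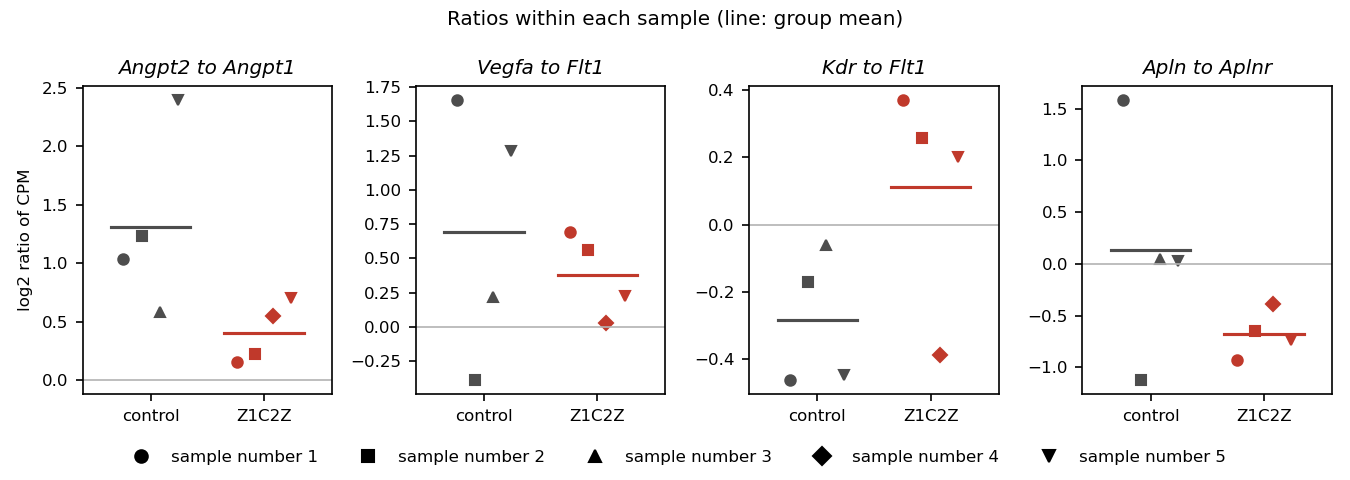
Log2 ratios of CPM of 4 gene pairs in each of the 8 samples, control in grey and Z1C2Z in red, with lines at the group means and marker shapes for the sample numbers. All 4 ratios overlap between the groups, and the Angpt2 to Angpt1 ratio averages 1.31 in the controls and 0.41 in Z1C2Z.

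Most of these genes are made mainly by endothelial cells, so each was also set against the mean log2 CPM of the 16 endothelial markers in the same sample. That mean was 4.28, 5.45, 5.15 and 5.70 in the controls and 4.63, 4.43, 4.23 and 4.97 in Z1C2Z. It was 0.58 lower in Z1C2Z on average, with overlapping groups (exact permutation p = 0.143), and control-1 had nearly the lowest value of all samples. The log2 fold change was below 0 for 15 of the 16 markers, with a median of -0.73. EdgeR called 0 of the 16, against 3.85% of all tested genes called lower. At an unadjusted p under 0.05, 11 were lower, against 15.2% of all tested genes. DESeq2 called 4 lower, against 9.31% of the genes it gave an adjusted p. The markers with the smallest p were Eng, a TGF-beta coreceptor (log2 fold change -0.92, adjusted p = 0.0913, edgeR), and Pecam1, an adhesion molecule of endothelial junctions (-0.80, adjusted p = 0.111).

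Relative to these markers, Tek stood higher in Z1C2Z. Tek was 0.59, 0.53, 0.47 and 0.12 log2 units above the marker mean in the controls and 0.75, 0.63, 0.61 and 0.64 above it in Z1C2Z. All 4 treated samples were above all 4 controls, with a mean difference of 0.23 (exact permutation p = 0.0286, the smallest possible). The p is 1 of 10 and was not adjusted. The log2 fold change of Tek itself was -0.38, while the marker mean was 0.58 lower in Z1C2Z, so the difference is not a rise of Tek. The share of all tested genes that separate in this way was not computed. Kdr differed by 0.02 (exact permutation p = 0.886) and Aplnr by 0.14 (exact permutation p = 0.514). For 4 ligands the mean difference was below 0, at -1.25 for Pgf, -0.69 for Vegfa, -0.67 for Apln and -0.35 for Angpt2, but none passed the test and the groups overlapped (exact permutation p = 0.200, 0.400, 0.200 and 0.143). For Pgf, control-2 and control-3 lay at -2.83 and -2.26, among the treated samples at -3.03 to -2.07, whereas control-1 and control-5 lay at 0.16 and -0.24. Flt1 differed by -0.38, Esm1 by -0.50 and Angpt1 by 0.56 (exact permutation p = 0.200, 0.543 and 0.200).

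**Figure D4:**
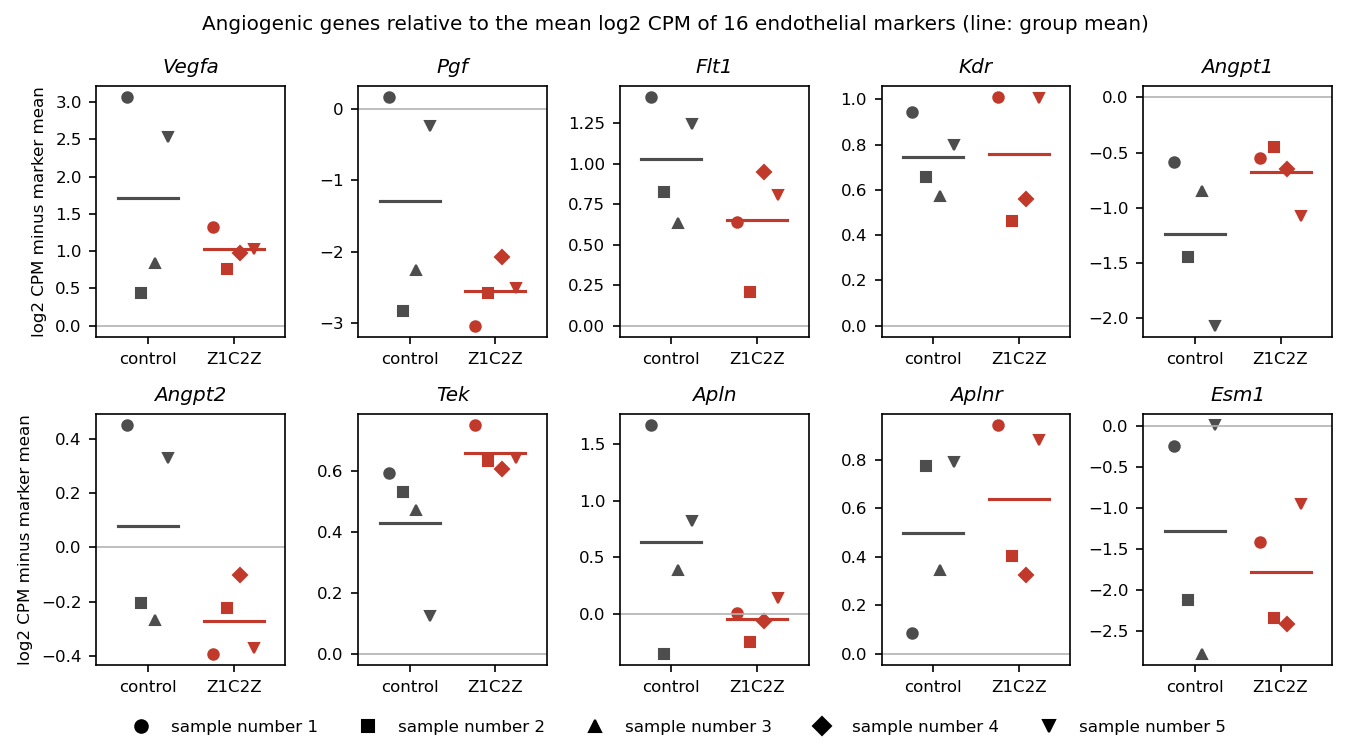
Log2 CPM of each of the 10 genes minus the mean log2 CPM of 16 endothelial markers in the same sample, control in grey and Z1C2Z in red, with lines at the group means. Tek is the gene whose groups do not overlap, at 0.12 to 0.59 in the controls and 0.61 to 0.75 in Z1C2Z.

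The other listed genes of these systems were mostly lower in value, and most were not called. Over 6 lists, 38 of 39 genes could be tested, and their median log2 fold change was -0.57. EdgeR called 6 of the 38 lower and 1 higher, against 3.85% and 4.28% of all tested genes. The further VEGF genes (Vegfb, Vegfc, Vegfd, Flt4, Nrp1 and Nrp2) had 0 calls of 6, with 1 lower at an unadjusted p under 0.05 and 1 called lower by DESeq2. The smallest p among them belonged to Flt4, the lymphatic receptor VEGFR3 (log2 fold change -0.51, adjusted p = 0.0839, edgeR), and to its ligand Vegfd (-0.68, adjusted p = 0.180). The further angiopoietin and Tie genes had 0 calls of 3, with 1 lower at an unadjusted p under 0.05 and 0 called by DESeq2. Of all tested genes, 15.2% were lower at an unadjusted p under 0.05. DESeq2 called 9.31% lower of the genes it gave an adjusted p. Tie1, an orphan receptor that pairs with TIE2, had a log2 fold change of -0.80 (adjusted p = 0.175, edgeR), and Ptprb, a phosphatase that damps TIE2, one of -0.57 (adjusted p = 0.267). Apela, the other ligand of the apelin receptor, had 0 to 9 counts per sample and was not tested.

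Of 10 tip cell genes, edgeR called 2 lower and 1 higher, against 3.85% and 4.28% of all tested genes. At an unadjusted p under 0.05, 7 were lower and 1 higher, against 15.2% and 12.8%. DESeq2 called 6 lower and 1 higher, against 9.31% and 7.65% of the genes it gave an adjusted p. Plaur, the urokinase receptor, which neutrophils and macrophages also make, fell from 44.4 ± 22.4 to 11.3 ± 4.18 CPM (SD, n = 4 each; log2 fold change -1.97, adjusted p = 0.0302, edgeR). Cd34, a sialomucin of endothelial and progenitor cells, fell by 0.34 on the log2 scale (adjusted p = 0.0487, edgeR). Unc5b, a netrin receptor of tip cells, rose from 33.9 ± 4.02 to 66.4 ± 13.3 CPM (SD, n = 4 each; log2 fold change 0.97, adjusted p = 0.0299, edgeR), the opposite direction to the other 9 genes of its list. For these 3 genes the groups did not overlap. Over the whole list, 4 genes were lower without overlap, against 8.82% of all tested genes, and 1 was higher.

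Of 8 listed inhibitors of angiogenesis, edgeR called 3 lower and 0 higher, against 3.85% and 4.28% of all tested genes. At an unadjusted p under 0.05, 6 were lower and 1 higher, against 15.2% and 12.8% of all tested genes. DESeq2 called 4 lower and 1 higher, against 9.31% and 7.65% of the genes it gave an adjusted p. The thrombospondins Thbs1 and Thbs2, matrix proteins that restrain endothelial growth, fell from 981 ± 605 to 210.1 ± 84.7 CPM and from 1395 ± 360 to 749 ± 161 CPM (SD, n = 4 each), with log2 fold changes of -2.22 and -0.90 (adjusted p = 0.0302 and 0.0395, edgeR). Adamts1, a metalloprotease that binds VEGF-A, fell by 0.91 on the log2 scale (adjusted p = 0.0302, edgeR). Thbs1 was 976, 539, 571 and 1837 CPM in the controls, so that control-5 was again the highest.

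Of 11 hypoxia response genes, 9 had a log2 fold change below 0 and 2 (Egln3 and Pdk1) one within 0.01 of 0. The median was -0.66, and edgeR called 1 gene lower, against 3.85% of all tested genes. Hif1a, the oxygen-regulated subunit of the hypoxia-inducible factor, fell from 668 ± 40.1 to 380 ± 91.9 CPM (SD, n = 4 each; log2 fold change -0.81, adjusted p = 0.0302, edgeR), although its activity is set mainly at the protein level. At an unadjusted p under 0.05, 8 of the 11 were lower, against 15.2% of all tested genes. DESeq2 called 6 lower, against 9.31% of the genes it gave an adjusted p.

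Signaling genes downstream of the VEGF receptors came from the deposited annotation. Among 55 tested genes that it assigns to the KEGG VEGF signaling pathway, apart from the 10 described above, the median log2 fold change was -0.11. EdgeR called 3 of the 55 lower and 1 higher, against 3.85% and 4.28% of all tested genes. At an unadjusted p under 0.05, 16 were lower and 6 higher, against 15.2% and 12.8%. DESeq2 called 8 lower and 4 higher, against 9.31% and 7.65% of the genes it gave an adjusted p. Ptgs2, the inducible cyclooxygenase, fell from 348 ± 369 to 18.7 ± 13.6 CPM (SD, n = 4 each; log2 fold change -4.22, adjusted p = 0.0495, edgeR). Its controls ranged from 34.6 CPM in control-3 to 776 CPM in control-5. Shc2, an adaptor protein, fell by 0.57 on the log2 scale (adjusted p = 0.0302, edgeR). Pik3cb, a catalytic subunit of phosphoinositide 3-kinase, rose by 0.59 (adjusted p = 0.0378, edgeR). The hair marker sums given above differed between the groups in these comparisons too, and with the hair score as a covariate 0 genes of the 6 lists were called.

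**Figure D5:**
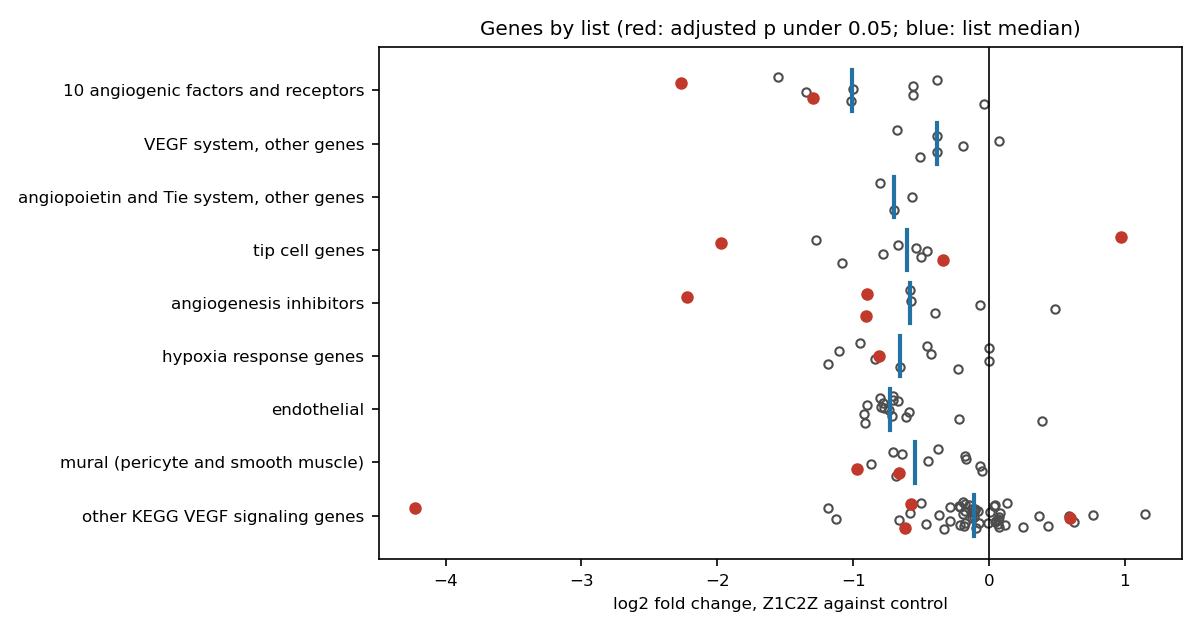
Log2 fold change, Z1C2Z against control, of the tested genes of each list, where 1 point is 1 gene, red points passed an adjusted p under 0.05 and blue lines mark list medians. The 10 angiogenic factors and receptors have a median of -1.01, the endothelial markers -0.73 and the other KEGG VEGF signaling genes -0.11.

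The genes whose pattern over the 8 samples was most like each of the 10 were sought among 13249 genes by Pearson's r of log2 CPM. Each is the best of that number, so no test applies, and all pairs share libraries and their tissue makeup. Vegfa ran closest to Ndrg1 (r = 0.985, Spearman's rho = 0.881, n = 8), a hypoxia response gene of the list above, and Pgf to Ramp3 (r = 0.994, rho = 0.952, n = 8), which is in the tip cell list. Tek ran closest to Mecom (r = 0.990, rho = 0.976, n = 8), Flt1 to Furin (r = 0.992, rho = 1, n = 8) and Apln to Vps37b (r = 0.994, rho = 0.952, n = 8). The closest gene reached r = 0.983 for Kdr (Manba), 0.989 for Aplnr (Atxn7l3), 0.986 for Angpt2 (Pabpc4), 0.974 for Angpt1 (F8) and 0.969 for Esm1 (Pptc7).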

How the data were processed

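RNA was sequenced from wound skin of mice, with 4 control and 4 Z1C2Z libraries. The authors deposited a table of raw counts per gene, without normalization, for 18540 genes; per the labels, ribosomal RNA was removed and the second strand was made with dUTP. The aligner, counter, genome build, annotation and strand setting are not given in the sources used here.

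Counts were tested with edgeR 4.0.16 in R 4.3.3 (default low-count filter, TMM scaling, quasi-likelihood test, Benjamini-Hochberg adjustment over 15147 genes, call at an adjusted p under 0.05). Standard errors and 95% intervals came from the F statistic. CPM values used the TMM-scaled library sizes, and log2 CPM a prior count of 2. Ratios and values relative to endothelial markers were compared with exact two-sided permutation tests. The edgeR step was tested on simulated counts, and the DESeq2 step was not. No pair of libraries agreed within sampling noise (smallest chi-square per degree of freedom 21.7).

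The 10 genes were described in full. From each list the text names every gene called, at most 6, or, where none was called, the 2 with the smallest unadjusted p. For 1 called gene the values are not reported here. The genes, the lists and the tests were chosen with earlier results of these data known. Alternatives were DESeq2 1.42.0, RLE scaling, other low-count filters, a fold threshold, a block for the sample number, a covariate for skeletal muscle content and leaving out each library. A hair shaft score as a covariate, and leaving out Z1C2Z-2 and Z1C2Z-4 together, were chosen after seeing the data. Gene lengths are union exon lengths of the GENCODE M21 annotation, which may not be the annotation behind the counts.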

Additional observations from a re-analysis of the deposited data

How the results depend on the processing

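Counts of calls moved with most settings. Of the 10 genes, edgeR called 2 lower, DESeq2 called 4 (Pgf, Flt1, Angpt2 and Apln), and 0 were called with the skeletal muscle score or the hair shaft score as a covariate or without Z1C2Z-2 and Z1C2Z-4 together. Leaving out 1 library gave 0 to 3, with 0 without control-2, without control-5 and without any 1 treated library other than Z1C2Z-5. In each of these 5 fits, 5 of the 10 genes were lower at an unadjusted p under 0.05, and in all but the fit without control-2 edgeR called 0 genes of the whole table. For the 38 other pathway genes, 6 lower and 1 higher became 17 and 2 with DESeq2, 3 and 0 with the muscle score, 2 and 0 with an added 2-fold threshold, 0 and 0 with the hair score or without Z1C2Z-2 and Z1C2Z-4, and 0 to 12 and 0 to 2 when 1 library was left out (12 and 2 without control-1). RLE scaling and both other low-count filters kept the 2 calls, Pgf and Apln. The log2 fold change turned above 0 with the hair score for Vegfa (0.46), Kdr (0.16), Aplnr (0.0923) and Esm1 (1.79), each with an adjusted p of 0.999 in edgeR; the cause was not tested. That of Angpt1 was 0.056 without Z1C2Z-2 and Z1C2Z-4, and -0.13 to 0.11 when 1 library was left out, above 0 without control-3 (0.11) or Z1C2Z-4 (0.05). The difference in the Vegfa to Flt1 ratio ran from -0.68 to 0.0055, the latter without control-1. Relative to endothelial markers, 0 genes were lower without overlap, and 0 to 1 when 1 library was left out (Apln, without control-2).

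Sample numbers 1, 2 and 5 occur in both groups, but nothing says that they mark a shared mouse or day. Deviations from the group means correlated at -0.101, -0.06 and 0.32 for these numbers, and 2 of 6 samples correlated best with their own number, so the samples were not treated as paired. With the replicate block, edgeR called 4 of the 10 genes lower (Vegfa, adjusted p = 0.0455; Pgf; Apln; Esm1, adjusted p = 0.0268), against 1.67% of all tested genes, 0 other pathway genes higher, and the log2 fold change of Angpt1 was 0.21. Control-3 and Z1C2Z-4 have no partner of the same number and add nothing to the group difference in that fit. It therefore rests on the samples numbered 1, 2 and 5.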

Other observations

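Markers of vessel-associated cells other than endothelium were also lower in value, and most were not called. Of 12 mural markers, which mark pericytes and smooth muscle, 12 had a log2 fold change below 0, with a median of -0.54. EdgeR called 2 of them lower, against 3.85% of all tested genes. Acta2, the smooth muscle actin that myofibroblasts also make, fell from 334 ± 63.7 to 211 ± 25.6 CPM, and Des, the intermediate filament of muscle, fell from 274 ± 57.8 to 140.1 ± 5.52 CPM (SD, n = 4 each; adjusted p = 0.0377 and 0.0299, edgeR). Des is also a gene of skeletal muscle, whose markers were 3324 to 6230 CPM in sum in the controls and 2906 to 3142 CPM in Z1C2Z.

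Of 7 lymphatic endothelial markers, edgeR called 1 lower, against 3.85% of all tested genes. Pdpn, which keratinocytes, fibroblasts and macrophages also make, fell from 171 ± 62.5 to 77.3 ± 24.8 CPM (SD, n = 4 each; adjusted p = 0.0485, edgeR). The median log2 fold change of the list was 0.01, with 3 of 7 below 0.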
